A study of Homo sapiens with 8 samples.

Results

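The response to the BET degrader ARV825 was compared between SNU1079 and SSP25, 2 human cholangiocarcinoma (CCA, bile duct cancer) cell lines, over the genes that both lines expressed. Of 56269 genes in the deposited tables, 9139 reached 5 TPM (a transcript level scaled for length and library total) in at least 2 of the 4 libraries of each line and were kept as members. RNA was sequenced after 48 h in each line with vehicle (0.01% DMSO), BETp (ARV825 at 40 nM), mTORi (AZD8055 at 50 nM) or both drugs (BETp + mTORi, called the combination here, whose doses the labels do not give). Both lines are labelled wildtype, although the study's own sequencing found IDH1 and ARID1A mutations in SNU1079. They were grown in the same serum-containing medium. Each treatment was 1 library per line, 8 in all, and nothing tells a drug effect in a line apart from a difference between single cultures. The ARV825 effect of a line is the mean of 2 differences on the log2(TPM + 1) scale, BETp minus vehicle and combination minus mTORi. The line difference is the effect in SSP25 minus that in SNU1079, so that positive values mean higher in SSP25 relative to SNU1079. The question was what only 1 of the lines did when BET proteins were degraded.

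BET proteins, BRD2 and BRD3 among them, read acetylated histones through their bromodomains and bring the elongation kinase P-TEFb to promoters and enhancers. ARV825 joins a bromodomain ligand to a ligand of cereblon, the substrate receptor of a ubiquitin ligase, so that BET proteins are marked for the proteasome. Because BET proteins are concentrated at enhancers, which differ from one cell type to another, the genes most affected by their loss are known to differ between cell lines. Inducible programmes such as the interferon and NF-kB responses are among those known to depend on BET proteins.

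Of the 9139 members, 8309 stood at 5 TPM or more in all 8 libraries and 8758 (95.8%) are annotated as protein coding. In SNU1079, 30 members passed the limit only through both libraries that had ARV825 and 48 only through both that did not. In SSP25 these were 32 and 85. ARHGAP27 and HERC2P9 lay just inside the limit, each with a second highest value of 5.01 TPM in its lower line, and PRPF40B and TOE1 just outside at 4.99 TPM. The markers of biliary epithelium were at 1 TPM or more in all libraries for 9 of 10 genes in SNU1079 and 7 of 10 in SSP25, where EPCAM did not pass 1.74 TPM, while CFTR was at or near 0 in both lines. The 6 leukocyte markers summed to 78.44 to 86.59 TPM without and 76.39 to 77.47 TPM with ARV825 in SNU1079, and to 185.25 to 239.54 and 169.17 to 194.31 TPM in SSP25, mostly CD68 with CD14 at 13.91 to 32.35 TPM in SSP25, while PTPRC and CD3E did not pass 0.24 TPM. Of the endothelial markers PECAM1 did not pass 0.49 TPM and CDH5 reached 2.19 TPM. The 6 fibroblast markers summed to 600.05 to 1003.74 TPM without and 274.28 to 548.28 TPM with ARV825 in SNU1079, nearly all of it COL1A1, and to 27.09 to 27.39 and 11.1 to 12 TPM in SSP25, mostly LUM. The 8 hepatocyte markers summed to 20.75 to 47.38 TPM without and 9.25 to 19.05 TPM with ARV825 in SNU1079, mostly SERPINA1, and to no more than 0.75 TPM in SSP25, with APOB listed at 0 throughout. The part of these sums in the results was not tested. The number of reads behind a TPM value is unknown.

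Many genes answered ARV825 alike in both lines. Across members the ARV825 effects of the lines had a Pearson r of 0.478 and a Spearman rho of 0.465, given as a description since genes are not independent replicates, and 68.6% of members had the same sign in both. The 2 pairs within a line had an r of 0.451 in SNU1079 and 0.561 in SSP25. The line difference itself repeated less well between the pair without and the pair with AZD8055, with an r of 0.254, and 5120 members (56.0%) had the same sign in both. The median line difference was -0.02, with 26 members at 1 or more and 51 at -1 or less. The scatter of effects in both lines shows this shared diagonal together with the genes that leave it.

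**Figure D1:**
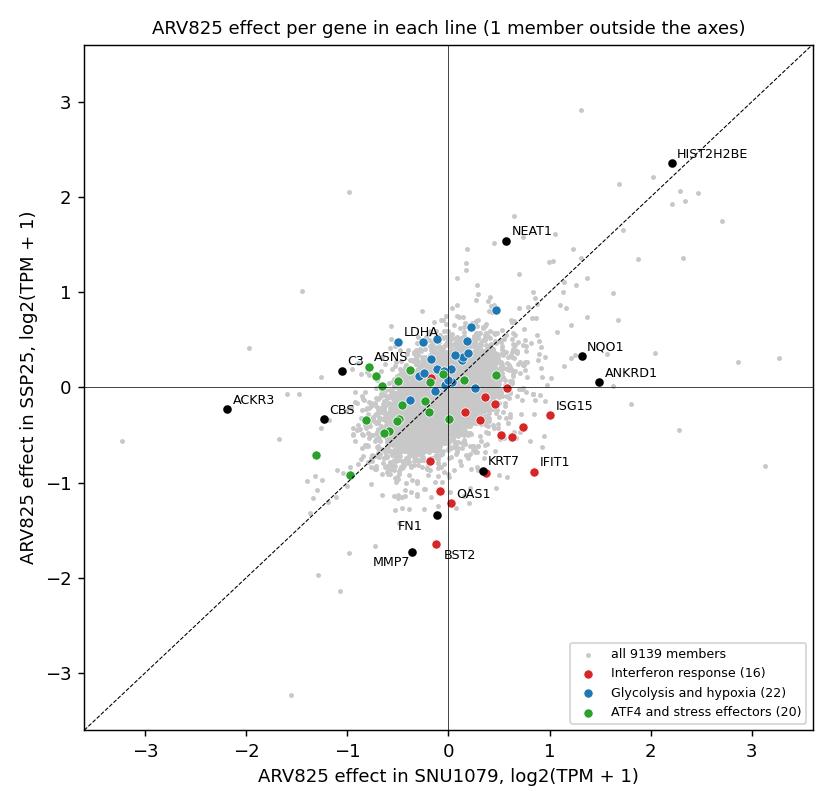
The ARV825 effect of each of the 9139 members in SNU1079 (horizontal axis) and in SSP25 (vertical axis), both as log2(TPM + 1) differences, with 3 gene lists in colour, other named genes in black and equal effects on the dashed line. Most interferon genes sit to the lower right, where ARV825 libraries were higher in SNU1079 and lower in SSP25, and most glycolysis and ATF4 genes above the diagonal.

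No member passed the test of the line difference. In a limma model of cell line with separate ARV825 and AZD8055 effects per line, fitted to 16060 genes with 2 residual degrees of freedom, 0 of 9139 members were called after Benjamini-Hochberg adjustment (0% of members and 0.00623% of all genes fitted, smallest adjusted p among members 0.122). The 1 gene called, SNORA3B, is no member: this small nucleolar RNA was listed at 0 in SNU1079 without ARV825, at 46.65 TPM with BETp and 37.99 TPM with the combination, and at 0 in SSP25. At an unadjusted p under 0.05, 379 members were higher (4.15%) and 612 lower (6.7%) in SSP25, 10.8% in all, against 5.17%, 7.19% and 12.4% of all genes fitted. When the same model was fitted and adjusted over the members alone, 70 passed (0.766%), 19 higher (0.208%) and 51 lower (0.558%). That number was 22 with quantile normalization, 22 without the SSP25 combination library, 24 without the SSP25 mTORi library, 113 without the SNU1079 vehicle and 107 without the SNU1079 BETp library. Below, the ± value is the SE of the limma fit, "limma p under 0.05" is unadjusted, and where a p is given for the line difference of a gene it is limma's adjusted p over all genes fitted, mostly followed by that over the members alone.

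Each line on its own gave some calls. ARV825 changed 84 members in SNU1079 (0.919% of members and 0.884% of all genes fitted), and 43 in SSP25 (0.471% and 0.442%). In SNU1079 42 rose and 42 fell (0.46% each, against 0.386% and 0.498% of all genes fitted), and in SSP25 18 rose and 25 fell (0.197% and 0.274%, against 0.143% and 0.299%). Over the members alone 619 (6.77%) and 775 (8.48%) passed. The 14 called in both lines, 16.7% of the SNU1079 calls and 32.6% of the SSP25 calls, all had the same direction, with 9 that rose and 5 that fell. Of the genes called in SNU1079, 88.1% had the same sign in SSP25, and of those called in SSP25, 86% had the same sign in SNU1079. Without any 1 of the 8 libraries both counts were 0 after adjustment, with 745 to 1577 and 928 to 1798 members at an unadjusted limma p under 0.05. With a pseudocount of 0.1 in place of 1 they were 1 and 0. Of the 84 and 43 called, 7 and 4 had met the 5 TPM limit in that line only through the 2 libraries with, or only through the 2 without, ARV825, a limit that favours such genes. A call in 1 line and not in the other does not show that the lines differ. Among the shared changes were HIST2H2BE, a core histone H2B gene, which rose by 2.21 ± 0.18 in SNU1079 and 2.35 ± 0.18 in SSP25 (limma adjusted p = 0.035 and 0.0375), and SQSTM1, an autophagy receptor, which rose by 1.14 ± 0.09 and 1.10 ± 0.09 (adjusted p = 0.0348 and 0.0428). CSF2, the cytokine GM-CSF, fell by 1.29 ± 0.11 in SNU1079 and fell by 1.97 ± 0.11 in SSP25 (adjusted p = 0.035 and 0.021).

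The 35 gene lists were written with earlier results of these data known. Among them the interferon response had the median line difference farthest from 0. Interferons act through a transcription factor complex that holds STAT2 and IRF9 and binds a repeat of GAAA, the interferon-stimulated response element, in the promoters of antiviral genes. Of 26 listed genes 16 are members, and 12 of them (75%) were lower in SSP25 and 0 higher at a limma p under 0.05, against 6.7% and 4.15% of all members. The list's median ARV825 effect was 0.37 in SNU1079 and -0.46 in SSP25, against -0.06 and -0.08 over all members, and its median line difference was -1.01. TPM values with ARV825 were higher in both SNU1079 pairs and lower in both SSP25 pairs for 10 of the 16 members, against 6.38% of all members. In the fit over the members alone 7 of the 16 passed, against 0.766% of all members. The count of 12 was 8 without an AZD8055 term, and 8 without the SNU1079 mTORi or combination library.

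The stretches of promoter that carry the repeat are shown for the 5 members with the largest differences among those that hold it. They were read from GRCh37 at the canonical transcript starts of GENCODE 44, upstream bases only, in the direction of transcription. Capitals mark 1 match to the repeat as searched, a GAAA, any 2 bases and a GAAA, or its reverse complement.
IFIT1 (chr10:91152245-91152292, plus strand): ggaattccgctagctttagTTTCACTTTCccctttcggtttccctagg
BST2 (chr19:17516541-17516588, minus strand): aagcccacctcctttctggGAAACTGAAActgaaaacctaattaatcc
ISG15 (chr1:948745-948792, plus strand): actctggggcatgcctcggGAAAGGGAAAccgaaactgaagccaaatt
IFIT3 (chr10:91087613-91087660, plus strand): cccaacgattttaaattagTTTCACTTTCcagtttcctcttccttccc
IFIT2 (chr10:91061689-91061736, plus strand): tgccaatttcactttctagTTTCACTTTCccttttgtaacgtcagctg
The motif search covered both strands from 250 bases before to 50 after the start and was added after the values had been seen. The repeat was present in 10 of 16 interferon list members (62.5%), in 2.68% of the 8431 members with such a window and in 3.29% of 19874 protein-coding genes of the annotation. Members lower in SSP25 at a limma p under 0.05 held it in 6.77% of 561 windows, and still in 5.65% of 549 without the interferon list, whereas those higher in SSP25 held it in 2.1% of 333. These shares are descriptions, and a match is not a bound site.

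IFIT1, an RNA-binding antiviral protein (chromosome 10, 91152303 to 91166244), measured 6.53, 10.46, 3.07 and 7.69 TPM across the SNU1079 libraries and 15.4, 9.95, 10.39 and 4 TPM across those of SSP25, in the order vehicle, BETp, mTORi and combination used from here on. Both SNU1079 values with ARV825 lay above their partners and both SSP25 values below. The line difference was -1.74 ± 0.29 (adjusted p = 0.191, and 0.0333 over the members alone). ISG15, a ubiquitin-like protein that interferon induces (chromosome 1, 936518 to 949920), measured 61.75, 106.04, 39.62 and 94.71 TPM across the SNU1079 libraries and 131.68, 120.21, 154.08 and 112.18 TPM across those of SSP25, so that its difference of -1.30 ± 0.20 came mostly from SNU1079 (adjusted p = 0.186, and 0.0189 over the members alone). IFIT3 went from 10.62 to 17.55 TPM and from 7.27 to 11.46 TPM in the SNU1079 pairs, and from 29.47 to 21.23 TPM and from 23.06 to 14.96 TPM in the SSP25 pairs. Its line difference was -1.16 ± 0.14 (adjusted p = 0.173, and 0.0269 over the members alone). IFIT2, with 5.88, 11.52, 4.04 and 6.74 TPM in SNU1079 and 20.71, 14.87, 17.58 and 13.23 TPM in SSP25, differed by -1.16 ± 0.17 (adjusted p = 0.184, and 0.04 over the members alone). In these IFIT genes the SSP25 level was higher in the libraries without ARV825. In those with it the gap between the lines was narrower for IFIT2 and IFIT3, while IFIT1 was higher in SNU1079.

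Of the 16 interferon members 2 passed the test in SSP25 and 0 in SNU1079, against 0.471% and 0.919% of all members. BST2 (tetherin), which holds budding virus at the cell surface (chromosome 19, 17513748 to 17516439), fell by 1.64 ± 0.09 in SSP25 (limma adjusted p = 0.0223), from 8.24 to 2.1 TPM without and from 5.2 to 0.89 TPM with AZD8055. In that line it met the 5 TPM limit only through the 2 libraries without ARV825. In SNU1079 it stayed between 106.09 and 117.76 TPM, and the line difference was -1.53 ± 0.13 (adjusted p = 0.123, and 0.00971 over the members alone). OAS1, a sensor of double-stranded RNA (chromosome 12, 113343661 to 113371024), fell by 1.21 ± 0.11 in SSP25 (adjusted p = 0.0468), from 20.16 to 7.87 and from 11.26 to 4.44 TPM. SNU1079 had 10.0, 10.15, 5.68 and 5.8 TPM of OAS1, with hardly any difference between partners. For both genes the SSP25 libraries with ARV825 were the lowest of that line.

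The factors of the pathway were measured too. IRF9, the DNA-binding subunit, measured 48.56, 52.36, 28.11 and 44.12 TPM across the SNU1079 libraries and 21.97, 14.01, 25.29 and 10.62 TPM across those of SSP25, a line difference of -1.27 ± 0.27 (adjusted p = 0.236, and 0.0572 over the members alone). STAT2 differed by -0.59 ± 0.17 (adjusted p = 0.307, and 0.191 over the members alone), from values of 32.9, 46.07, 24.82 and 40.68 TPM in SNU1079, while in SSP25 it was higher with BETp and lower with the combination than without ARV825. IRF1, a factor induced by interferon gamma, differed by -0.65 ± 0.10 (adjusted p = 0.188, and 0.0619 over the members alone). The other 10 listed genes are no members, since each was under 5 TPM in at least 3 SNU1079 libraries. All 10 were lower in both SSP25 pairs, among them IFI44L, and in both SNU1079 pairs 2 were higher and 4 lower. IFI44L stood at 14.99, 2.25, 7.54 and 1.02 TPM in SSP25 and no more than 1 TPM in SNU1079.

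**Figure D2:**
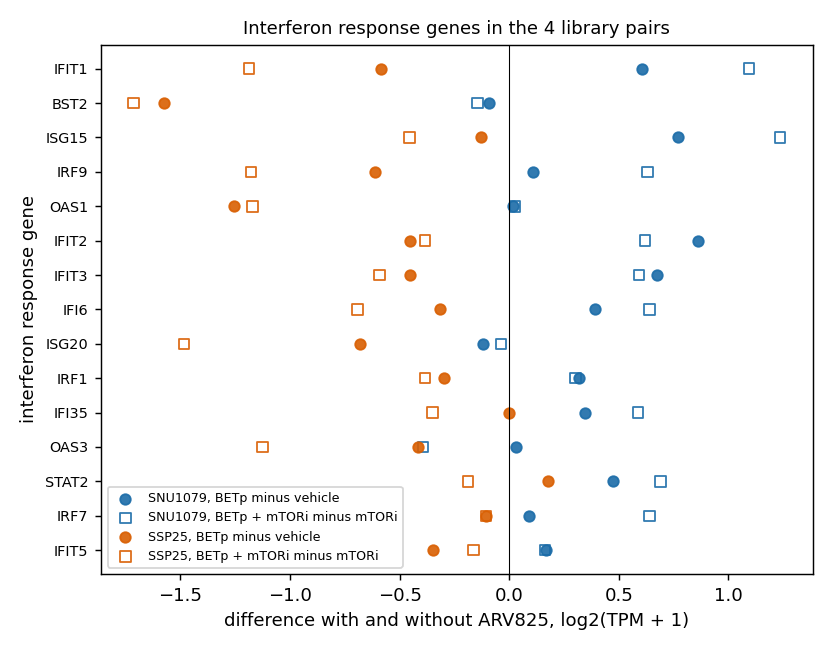
Differences between libraries with and without ARV825, in log2(TPM + 1), for 15 of the 16 interferon members, with SNU1079 in blue, SSP25 in orange, filled circles without AZD8055 and open squares with it. IFIT1, ISG15, IFIT2, IFIT3 and IFI6 have both blue points right of 0 and both orange points left of it, and BST2 and OAS1 have blue points near 0.

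Genes of MHC class I presentation, which is also under interferon control, split. Of 17 listed genes 16 are members, of which 5 (31.2%) were lower in SSP25 and 0 higher at a limma p under 0.05. Over all members these shares were 6.7% and 4.15%. The list's median line difference was -0.20, and 1 member was lower at that p without an AZD8055 term. PSMB10, an immunoproteasome subunit (chromosome 16, 67968409 to 67970767), rose by 0.67 ± 0.08 in SNU1079 (limma adjusted p = 0.0474), from 27.78 to 46.18 and from 26.8 to 42.0 TPM, and measured 51.33, 36.12, 42.98 and 28.5 TPM in SSP25. The line difference was -1.21 ± 0.12 (adjusted p = 0.144, and 0.0114 over the members alone). B2M, the invariant light chain (chromosome 15, 45003556 to 45011049), rose by 0.50 ± 0.05 in SNU1079 (adjusted p = 0.0389), from 730.53 to 1019.44 and from 532.44 to 766.77 TPM. In SSP25 it stood at 6745.34, 6114.5, 6706.6 and 6413.6 TPM, far above SNU1079 throughout. PSMB9, another immunoproteasome subunit, differed by -0.81 ± 0.15 (adjusted p = 0.204, and 0.0475 over the members alone) and the peptide transporter TAP1 by -0.50 ± 0.11 (adjusted p = 0.239, and 0.154 over the members alone). The heavy chains HLA-B and HLA-C had differences of -0.01 ± 0.11 and -0.04 ± 0.16 and did not have the same sign in both pairs.

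Epithelial genes of the bile duct differed in both directions. Of 30 listed genes 15 are members, 7 of them (46.7%) lower and 2 (13.3%) higher in SSP25 at a limma p under 0.05. Over all members these shares were 6.7% and 4.15%. The list's median line difference was -0.35, and 4 members were lower at that p without an AZD8055 term. KRT7, a keratin of bile duct cells (chromosome 12, 52626304 to 52645970), fell by 0.88 ± 0.07 in SSP25 (limma adjusted p = 0.0375), from 688.14 to 404.26 and from 812.16 to 409.81 TPM. SNU1079 had 3008.57, 3731.36, 2909.1 and 3745.93 TPM of KRT7, higher in both ARV825 libraries, and the line difference of -1.21 ± 0.10 (adjusted p = 0.123, and 0.00332 over the members alone) ranked first by p among members lower in SSP25. KRT80 fell by 1.11 ± 0.08 in SSP25 (adjusted p = 0.0321), from 25.7 to 11.1 and from 21.76 to 9.78 TPM, and stood between 173.89 and 204.13 TPM in SNU1079. CLDN1, a tight junction protein, fell by 0.75 ± 0.08 in SSP25 (adjusted p = 0.0497), from 121.29 to 68.71 and from 104.6 to 64.94 TPM. Other keratins of the same epithelium did not share this, as KRT19 and KRT8 had differences of -0.13 ± 0.18 and -0.08 ± 0.07.

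Matrix, adhesion and inflammatory genes held further falls in SSP25. FN1, the matrix protein fibronectin (chromosome 2, 216225163 to 216300796), fell by 1.34 ± 0.11 in SSP25 (limma adjusted p = 0.0428), from 574.86 to 261 and from 732.43 to 250.38 TPM, and stood at 57.71, 53, 38.24 and 35.69 TPM in SNU1079. MMP7, a secreted protease (chromosome 11, 102391239 to 102401481), fell by 1.73 ± 0.15 in SSP25 (adjusted p = 0.0437), from 28.58 to 8.48 and from 27.31 to 7.05 TPM. In SNU1079 it had 194.75, 185.19, 107.15 and 68.21 TPM, lower with ARV825 in both pairs, and the line difference was -1.37 ± 0.21 (adjusted p = 0.186, and 0.0222 over the members alone). The line difference of TPM1, which stabilises actin filaments, was -0.93 ± 0.08 (adjusted p = 0.123, and 0.00932 over the members alone), since it fell by 1.00 ± 0.06 in SSP25 (adjusted p = 0.0223), from 241.65 to 121.72 and from 276.52 to 136.73 TPM, and stayed between 1090.67 and 1189.47 TPM in SNU1079. The tissue factor gene F3, CAV1 of the membrane caveolae, the GTPase RND3, the growth factor TGFB2 and the glycosyltransferase GCNT3 also fell in SSP25, by 0.79, 0.81, 0.69, 0.81 and 1.27, at adjusted p-values of 0.0442 to 0.0497. At a limma p under 0.05, 6.7% of all members were lower and 4.15% higher. Of 16 epithelial-mesenchymal and matrix members 5 (31.2%) were lower and 0 higher, and of 15 TGF-beta members 6 (40%) and 0. Of 16 integrin and laminin members 3 (18.8%) were lower and 4 (25%) higher. Of 16 chemokine and NF-kB members 7 (43.8%) were lower and 1 (6.25%) higher. In the last list the apoptosis inhibitor BIRC3, at 25.56, 35.06, 16.89 and 18.82 TPM in SNU1079 and 34.57, 17.7, 16.47 and 9.03 TPM in SSP25, had the largest difference, -1.16 ± 0.16 (adjusted p = 0.184, and 0.0285 over the members alone).

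The motif TGANTCA, read by AP-1 factors and identical to its reverse complement apart from the middle base, stood in the promoter windows of 4 of the 25 members that fell in SSP25. It was present in 8.56% of the 561 windows of members lower in SSP25, in 3.3% of the 333 of members higher in SSP25, in 3.72% of all member windows and in 5.4% of those of protein-coding genes. The 3 fallen members in which it lies wholly upstream of the start are shown with 1 match each in capitals, from GRCh37 in the direction of transcription.
MMP7 (chr11:102401517-102401564, minus strand): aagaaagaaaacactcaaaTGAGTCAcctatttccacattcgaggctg
F3 (chr1:95007497-95007544, minus strand): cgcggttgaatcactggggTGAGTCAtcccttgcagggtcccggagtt
S100A2 (chr1:153538344-153538391, minus strand): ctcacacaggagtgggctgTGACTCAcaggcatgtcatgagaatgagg
S100A2, a calcium-binding protein, fell in both lines, by 1.25 ± 0.10 in SNU1079 and by 0.97 ± 0.10 in SSP25 (limma adjusted p = 0.0375 and 0.0497). TATAAA, the TATA box, was present in 7.13% of the windows of members lower and 8.71% of those of members higher in SSP25, against 4.4% of all member windows.

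**Figure D3:**
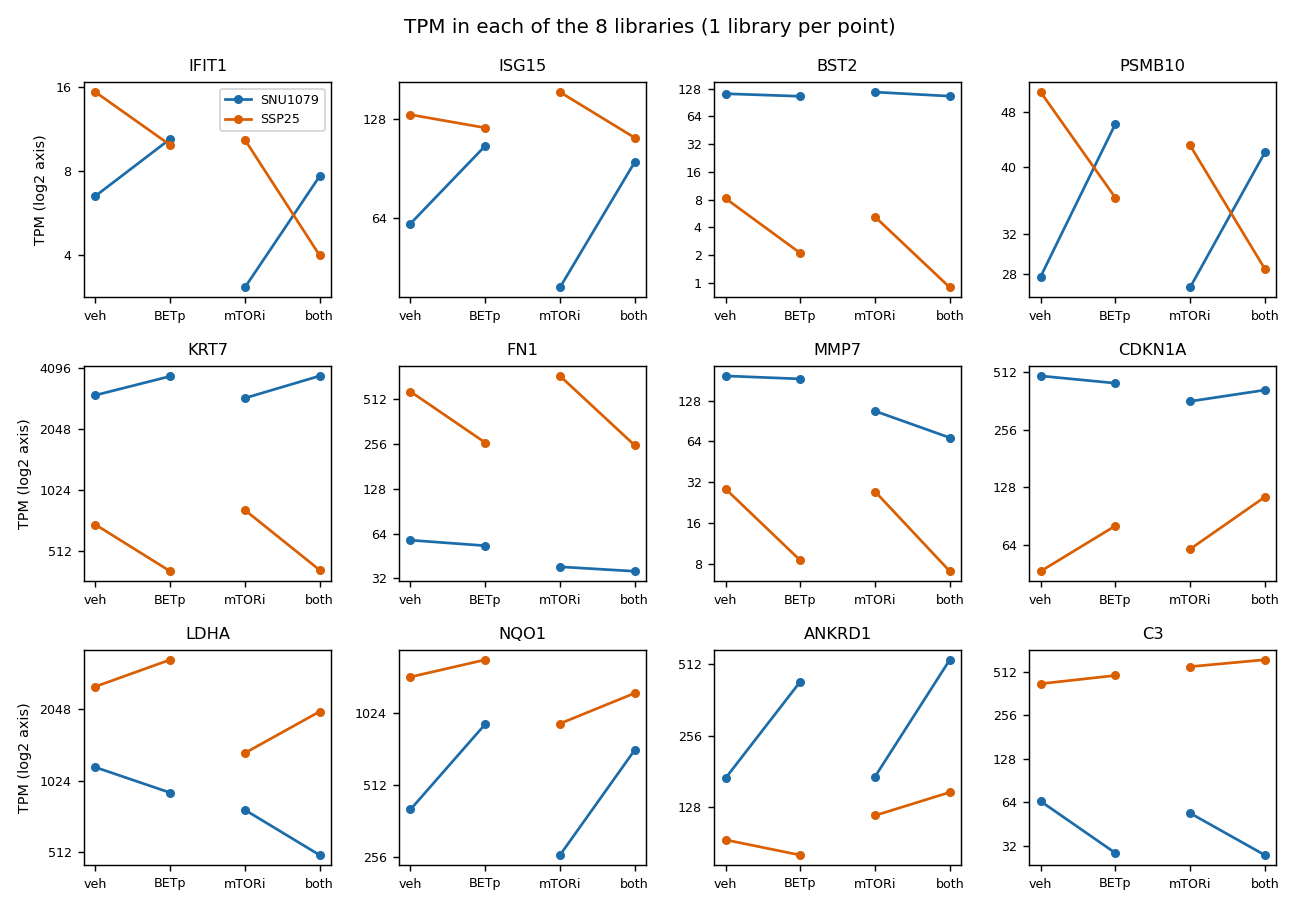
TPM on a log2 axis in each of the 8 libraries for 12 members, with SNU1079 in blue, SSP25 in orange and lines joining the libraries without and with ARV825 (veh, vehicle and both, the combination). IFIT1 and PSMB10 cross between the lines, KRT7 and FN1 drop along both SSP25 lines, MMP7 drops more steeply in SSP25 than in SNU1079, and ANKRD1 climbs and C3 drops along both SNU1079 lines.

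NRF2 targets and cluster histones were the lists with most members called in SNU1079, 7 in each. NRF2 is the factor that switches on antioxidant genes when KEAP1 no longer restrains it. Of 28 NRF2 target members 7 passed the test in SNU1079 and 3 in SSP25, against 0.919% and 0.471% of all members. At a limma p under 0.05, 7 (25%) were lower and 4 (14.3%) higher in SSP25, against 6.7% and 4.15%. The members called in SNU1079 went in both directions. AKR1C1 was called there and fell by 0.96 ± 0.12 (limma adjusted p = 0.0473), from 249.11 to 110.58 and from 72.9 to 42.54 TPM. NQO1, a quinone reductase (chromosome 16, 69740899 to 69760571), rose by 1.32 ± 0.09 in SNU1079 (limma adjusted p = 0.0304), from 405.25 to 921.28 and from 261.17 to 718.17 TPM. In SSP25, already at 1451.21 TPM with vehicle and 926.24 TPM with mTORi, it reached 1712.2 and 1241.46 TPM, and the line difference was -0.99 ± 0.12 (adjusted p = 0.173, and 0.0114 over the members alone). GCLC, which makes the first step of glutathione synthesis, rose by 0.72 ± 0.09 in SNU1079 (adjusted p = 0.0493), from 45.57 to 78.98 and from 35.65 to 57.28 TPM, and stood at 52.48, 48.03, 39.13 and 41.64 TPM in SSP25. Its partner subunit GCLM differed by -0.82 ± 0.17 (adjusted p = 0.235, and 0.0707 over the members alone). SRXN1, which repairs peroxiredoxins, was higher with ARV825 in both lines, by 0.70 ± 0.12 in SNU1079 (adjusted p = 0.0766) and by 1.19 ± 0.12 in SSP25 (adjusted p = 0.0497). Its line difference was positive, at 0.50 ± 0.17 (adjusted p = 0.351, and 0.224 over the members alone). The list's median line difference was -0.08.

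Further genes rose in SNU1079. ANKRD1, a YAP target (chromosome 10, 92671853 to 92680844), rose by 1.49 ± 0.15 (limma adjusted p = 0.0389), from 169.32 to 432.96 and from 171.85 to 535.27 TPM. In SSP25 it stood at 92.91, 80.12, 117.76 and 147.55 TPM, without 1 direction, and the line difference was -1.44 ± 0.21 (adjusted p = 0.184, and 0.0138 over the members alone). Of 20 YAP target members 5 (25%) were lower and 0 higher in SSP25 at a limma p under 0.05. Over all members these shares were 6.7% and 4.15%. The line difference was negative in 11 of the YAP targets and positive in 9, with a median of -0.06. GPRC5A, an orphan receptor induced by retinoids (chromosome 12, 13044493 to 13070871), rose by 1.14 ± 0.06 (adjusted p = 0.0261), from 193.59 to 410.81 and from 225.71 to 521.61 TPM, against 108.97, 125.6, 113 and 134.5 TPM in SSP25. 3 of the 84 rows called in SNU1079, the overlapping transcripts CH507-513H4.3, CH507-513H4.4 and CH507-513H4.6, share all 8 values and stand for 1 signal, which is also counted 3 times among the members that passed in the fit over the members alone.

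ATF4 target genes differed mostly in the positive direction. ATF4 turns on amino acid synthesis and transport when translation initiation is restrained. Of 20 ATF4 list members 8 (40%) were higher and 0 lower in SSP25 at a limma p under 0.05. Over all members these shares were 4.15% and 6.7%. The list's median effects were -0.49 in SNU1079 and -0.16 in SSP25, and its median line difference was 0.18. The count of 8 was 0 without an AZD8055 term and 5 without the SNU1079 vehicle or BETp library. TRIB3, a pseudokinase, fell by 1.30 ± 0.10 in SNU1079 (limma adjusted p = 0.0345), from 159.46 to 62.98 and from 108.79 to 44.18 TPM, and was also lower in both SSP25 pairs, at 169.81, 91.38, 70.22 and 48.13 TPM. ASNS, asparagine synthetase (chromosome 7, 97480989 to 97501854), measured 173.8, 110.39, 102.14 and 53.43 TPM across the SNU1079 libraries and 116.6, 109.45, 37.37 and 54.34 TPM across those of SSP25, where only the pair with AZD8055 was higher with ARV825. Its line difference was 1.00 ± 0.23 (adjusted p = 0.253, and 0.0692 over the members alone). ATF4 mRNA itself fell by 0.46 ± 0.05 in SNU1079 (adjusted p = 0.0467), from 332.25 to 241.44 and from 351.91 to 254.56 TPM, and measured -0.19 ± 0.05 in SSP25. The paper, in contrast, describes ATF4 levels in its CCA cells as not affected by any of the treatments.

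The serine, glycine and one-carbon list is a pathway that the study chose on these samples and therefore no independent evidence. The study also followed it with protein, metabolite and PSAT1 knockdown experiments, which these values do not cover. It had 6 of 19 members (31.6%) higher and 1 (5.26%) lower at that p, against 4.15% and 6.7% of all members. Its median line difference was 0.10. The transsulfuration enzyme CBS (chromosome 21, 44473301 to 44497053), fell by 1.23 ± 0.09 in SNU1079 (limma adjusted p = 0.0345), from 41.32 to 18.66 and from 21.11 to 7.69 TPM, while SSP25 had 110.84, 87.21, 64.6 and 51.27 TPM. Its line difference was 0.89 ± 0.13 (adjusted p = 0.184, and 0.0392 over the members alone). PSAT1, the aminotransferase of serine synthesis, had an ARV825 effect of -1.02 ± 0.14 in SNU1079 and -0.24 ± 0.14 in SSP25, a difference of 0.77 ± 0.20 (adjusted p = 0.275, and 0.108 over the members alone). The SSP25 pairs were unlike, from 254.14 to 179.1 TPM without AZD8055 and from 67.1 to 67.84 TPM with it. The line difference was 0.40 and 1.15 in these pairs. PHGDH is no member, since it did not pass 0.24 TPM in SNU1079. The paper reports that PHGDH decreased stepwise with single and combined drugs in RNA and, in SNU1079, in protein.

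Glycolysis and hypoxia genes had higher differences in SSP25, although these were small. Of 31 listed genes 22 are members, 9 (40.9%) higher and 0 lower in SSP25 at a limma p under 0.05. Over all members these shares were 4.15% and 6.7%. A positive difference was found in 21 of the 22, with a list median of 0.26. The count of 9 was 1 without an AZD8055 term. LDHA, lactate dehydrogenase A (chromosome 11, 18416107 to 18429972), measured 1166.35, 911.09, 770.53 and 496.41 TPM across the SNU1079 libraries and 2557.6, 3319.51, 1339.94 and 2005.52 TPM across those of SSP25. ARV825 libraries were lower in both SNU1079 pairs and higher in both SSP25 pairs, and the line difference was 0.97 ± 0.13 (adjusted p = 0.173, and 0.0116 over the members alone). BNIP3, a mitophagy receptor induced by hypoxia (chromosome 10, 133781188 to 133795471), showed the same pattern at a difference of 0.73 ± 0.10 (adjusted p = 0.184, and 0.0385 over the members alone). ALDOA, the glycolytic aldolase, rose by 0.63 ± 0.05 in SSP25 (limma adjusted p = 0.0321), from 2997.28 to 4704.82 and from 2560.84 to 3931.29 TPM. In SNU1079 its ARV825 effect was 0.23 ± 0.05, so the difference was one of size and not of direction.

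Single genes also had large positive line differences. C3, the central complement protein (chromosome 19, 6677715 to 6730573), fell by 1.05 ± 0.08 in SNU1079 (limma adjusted p = 0.0345), from 65 to 28.42 and from 53.74 to 27.49 TPM. In SSP25 it stood at 425.28, 485.33, 558.97 and 623.87 TPM, higher with ARV825 in both pairs, for a line difference of 1.23 ± 0.11 (adjusted p = 0.123, and 0.00754 over the members alone). ACKR3, a scavenging chemokine receptor (chromosome 2, 237476430 to 237490997), fell by 2.18 ± 0.15 in SNU1079 (adjusted p = 0.0304), from 13.82 to 1.92 and from 14.99 to 2.93 TPM, and stayed between 12.06 and 15.96 TPM in SSP25. It met the 5 TPM limit in SNU1079 only through the 2 libraries without ARV825. AREG, an EGF receptor ligand, had 171.66, 87.75, 108.73 and 36.3 TPM in SNU1079 and 8.66 to 13.53 TPM in SSP25, a difference of 1.37 ± 0.29 (adjusted p = 0.236, and 0.0526 over the members alone). The receptor kinase FGFR1 fell by 0.86 ± 0.10 in SNU1079 (adjusted p = 0.0467) and measured 0.14 ± 0.10 in SSP25. NEAT1, the long non-coding RNA that builds paraspeckles (chromosome 11, 65190245 to 65213011), rose in both lines, by 0.57 ± 0.07 in SNU1079 (adjusted p = 0.0493) and by 1.54 ± 0.07 in SSP25 (adjusted p = 0.021). It went from 112.89 to 308.83 and from 152.34 to 475.09 TPM in SSP25.

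Genes tied to BET biology and to the cell cycle are given for comparison. BRD2 had effects of 0.39 ± 0.09 in SNU1079 and 0.54 ± 0.09 in SSP25, and the cereblon gene CRBN -0.17 ± 0.11 and -0.14 ± 0.11. Their line differences were 0.16 ± 0.12 and 0.04 ± 0.16 (limma adjusted p = 0.667 and 0.958). MYC differed by 0.07 ± 0.15 (adjusted p = 0.888) and HEXIM1, a P-TEFb inhibitor used as a marker of BET inhibition, by -0.25 ± 0.16 (adjusted p = 0.591). BRD3 had a difference of 0.68 ± 0.24 (adjusted p = 0.358, and 0.26 over the members alone). CDKN1A, the CDK inhibitor p21 (chromosome 6, 36644237 to 36655114), measured 488.07, 447.45, 359.98 and 412.05 TPM across the SNU1079 libraries and 46.85, 80.82, 61.11 and 114.22 TPM across those of SSP25, a line difference of 0.80 ± 0.13 (adjusted p = 0.191, and 0.0385 over the members alone). Of 34 cluster histones 14 are members, of which HIST1H2AG and HIST1H2BG met the 5 TPM limit only through the libraries with ARV825 in both lines, and 0 of the 14 had a limma p under 0.05 for the line difference. Their median effects of 1.71 and 1.95 describe the members and not the list. Ribosomal protein, proteasome, mitosis and DNA replication lists also had 0 of 75, 31, 23 and 26 members at that p. For mitosis and DNA replication the median line difference was -0.36 and -0.48 in the pair without AZD8055 and 0.17 and 0.11 in the pair with it.

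**Figure D4:**
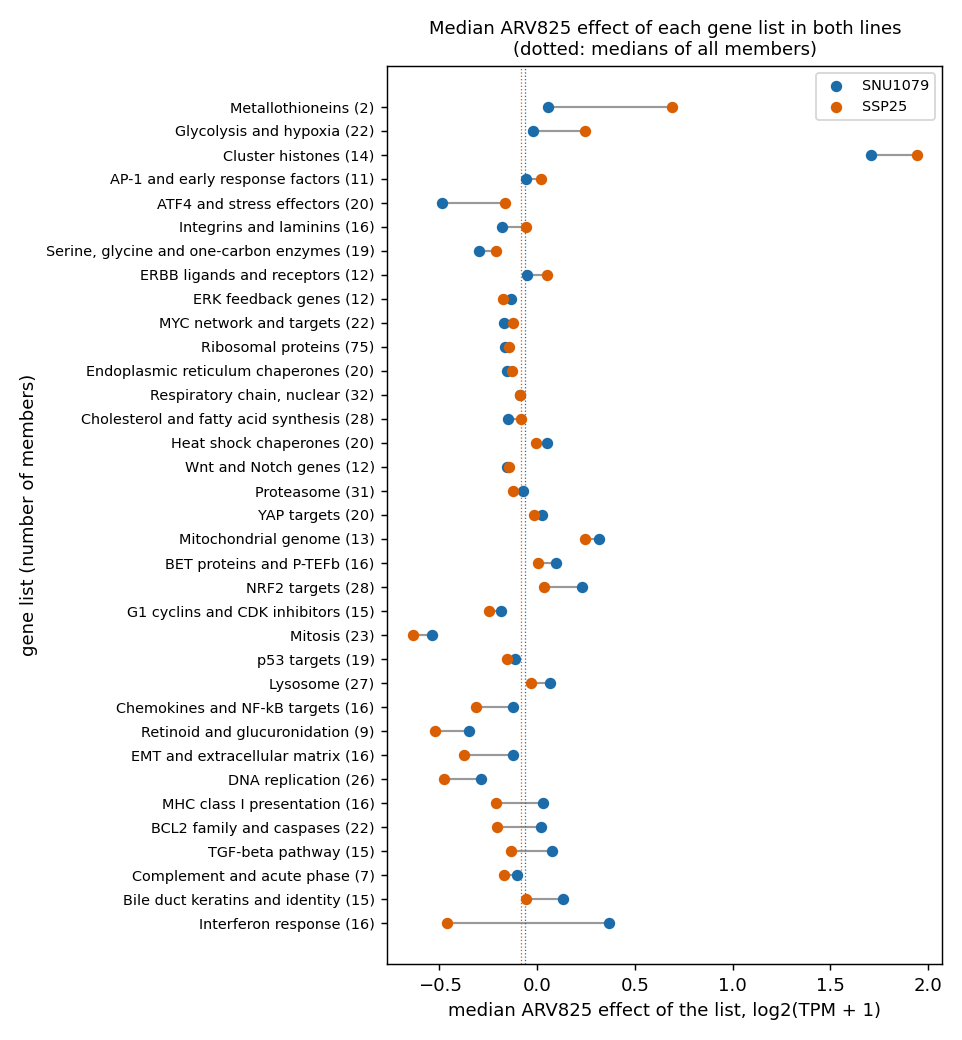
Median ARV825 effect, in log2(TPM + 1), of the members of 35 gene lists in SNU1079 (blue) and SSP25 (orange), ordered by the median line difference, with the medians of all members as dotted lines and the number of members in brackets. The interferon list has the widest gap to the left, from 0.37 to -0.46, while cluster histones are far right in both lines.

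Many of the most extreme differences belonged to genes whose reads are uncertain. The antisense transcript with the largest positive difference had 153.66, 109.37, 110.91 and 40.13 TPM in SNU1079 and 0, 14.34, 0 and 50.53 TPM in SSP25 (5.78 ± 0.63, limma adjusted p = 0.144, and 0.00433 over the members alone), and met the 5 TPM limit in SSP25 only through the libraries with ARV825. RP11-613D13.10, another antisense transcript, was listed at 0 in both SNU1079 libraries with ARV825 and at 8.81 and 7.94 TPM in the others, and its difference of 2.66 ± 0.19 ranked first by p among all members (adjusted p = 0.122, and 0.00332 over the members alone). It met the limit in SNU1079 only through the 2 libraries without ARV825. RP11-138C9.1, CTA-29F11.1 and RP11-498C9.13, further antisense transcripts, differed by 1.40, 1.22 and 1.15, and the long non-coding CH507-338C24.1 by -1.52. The protein-coding AP003419.11, at 0.01, 27.26, 11.52 and 40.66 TPM in SNU1079 and 27.77, 38.64, 18.09 and 20.38 TPM in SSP25, differed by -2.96 ± 0.97 (adjusted p = 0.336, and 0.149 over the members alone). RPL39P3, RPS28P7, TMSB4XP6, RP13-401N8.3, HIST2H2BD and AC006011.4 are annotated as pseudogenes, whose reads cannot be told apart with certainty from those of their parent genes. PIGY, LUZP6 and the readthrough gene RPL17-C18orf32 share transcribed sequence with other genes. The differences of these genes ran from -3.95 for TMSB4XP6 to 3.04 for RPL39P3, with an SE of 2.58 for the first. Where a library is listed at 0 the size of a difference depends on the pseudocount.

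Of the 70 members that passed in the fit over the members alone, all with the same sign in both pairs, 8 lower and 2 higher had an effect of 1 or more in SSP25 with less than 0.32 in SNU1079, BST2, OAS1, FN1, KRT80 and GCNT3 among them. An effect of 1 or more in SNU1079 with less than 0.32 in SSP25 was found in 6 with a negative and 2 with a positive line difference. ANKRD1, GPRC5A, CPA4 and ISG15, higher with ARV825 in SNU1079, were among the first. C3 and ACKR3, lower with ARV825 in SNU1079, were the second. Effects of 0.5 or more in opposite directions were found in 8, of which 7 were lower in SSP25, IFIT1, IFIT3, IFI6 and PSMB10 among them. Another 7 had the same sign with unequal size, such as NQO1 and MMP7, and 37 fell in none of these classes, the 3 rows of CH507-513H4 that share all values among them. Of the 70, 8 had met the 5 TPM limit in a line only through the 2 libraries with, or only through the 2 without, ARV825. The plot of pair differences sets the values of both pairs side by side.

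**Figure D5:**
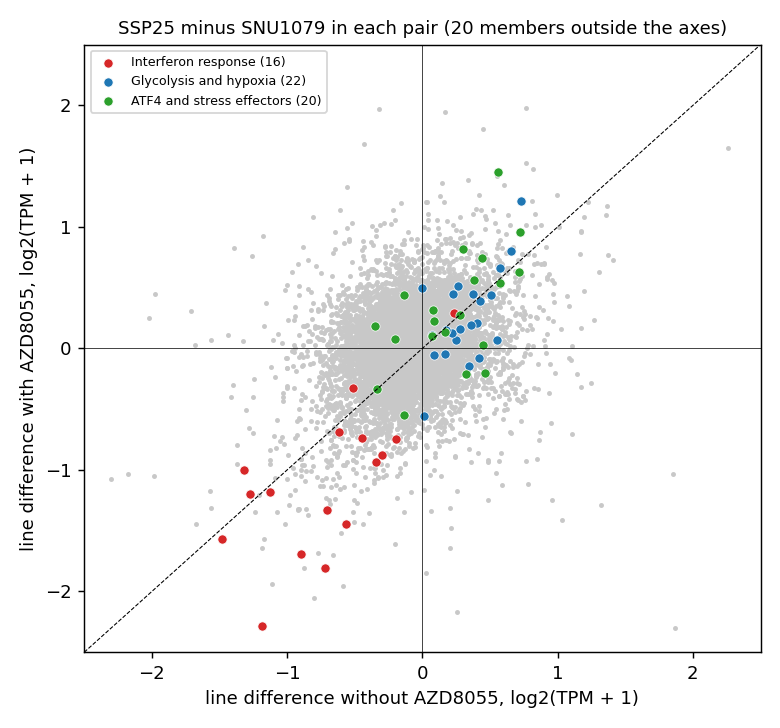
The line difference (SSP25 minus SNU1079, log2(TPM + 1)) in the pair without AZD8055 (horizontal axis) and with it (vertical axis) for each member, with 3 gene lists in colour and equality on the dashed line. Of the 16 interferon genes 15 lie at the lower left, whereas the grey cloud of all members is nearly round (r of 0.254), and 20 members lie outside the axes.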

How the data were processed

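RNA was sequenced in 8 libraries, 1 per cell line and treatment, prepared with a strand-specific kit. The authors deposited gene-level TPM values for each line, on GRCh37, and the submitters' processing notes name DESeq2 and edgeR, while the aligner is not given in the sources used. Since TPM values are not counts, no count test was run, depth is unknown, and within a line the spread is only the departure of its 4 libraries from additive drug effects. Genes that reached 1 TPM in 2 or more libraries (16060) were fitted as log2(TPM + 1) with limma 3.58.1 (R 4.3.3, eBayes with trend), with Benjamini-Hochberg adjustment at 0.05. The fit was tested on simulated data. Alternatives changed the pseudocount, filter, scaling, drug terms and libraries. Genes named were taken from the 12 members with the largest line difference in each direction, those that passed over the members alone or in 1 line, list members and BET-related genes. The members and lists were chosen with earlier results of these data known. Positions came from GENCODE 44 on GRCh37, which matched 8464 members. Some genes are not reported here.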

Additional observations from a re-analysis of the deposited data

Results flagged for a closer look

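The following members passed the test of the line difference in the fit over the members alone, while none passed over all genes fitted. Line differences (SSP25 minus SNU1079, log2) were negative for PIGY (-2.60), IFIT1 (-1.74), PCAT6 (-1.56), BST2 (-1.53), MMP24 (-1.52), KRT7 (-1.21), PSMB10 (-1.21), TRIM16 (-1.13), TRIM16L (-1.12), KRT80 (-1.02), CLDN1 (-0.94), TPM1 (-0.93), GPRC5A (-0.92), RND3 (-0.90) and B2M (-0.61). They were positive for NPC1 (0.65), BNIP3 (0.73), CDKN1A (0.80), CBS (0.89), NEAT1 (0.97), LDHA (0.97), FGFR1 (1.01), CTD-2228K2.7 (1.07), C3 (1.23), RP11-63A1.4 (1.27), ACKR3 (1.95), RPS28P7 (2.38), RP11-613D13.10 (2.66) and another antisense transcript, the one with the largest difference (5.78). TRIM16 and TRIM16L are near-identical copies, so how their reads were divided is uncertain.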

How the results depend on the processing

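No paired analysis was possible because each line and treatment had 1 library and the labels give replicate number 1 only. The count of members called for the line difference, 0 in the limma fit over all genes (991 at an unadjusted p under 0.05), stayed 0 with a pseudocount of 0.1, no filter, quantile normalization, rescaled TPM, robust eBayes and any library left out. It was 1 with a shared AZD8055 effect and 1 with no AZD8055 term, 70 over the members alone and, added after seeing the data, 22 over the members alone with quantile normalization and there without SNU1079 vehicle, BETp, mTORi or combination 113, 107, 65 or 64 and without those of SSP25 74, 73, 24 or 22. The SNU1079 count of 84 became 1 (pseudocount 0.1), 0 (no filter), 619 (members alone), 43 (rescaled), 3 (robust) and 8 (no AZD8055 term). The SSP25 count of 43 became 0, 0, 775, 8, 0 and 9 under these, and 8 with quantile normalization. With 1 library left out both were 0 to 0, 1 residual degree of freedom being left. Without an AZD8055 term the list counts were 1 for MHC class I, 4 for bile duct, 1 for glycolysis and 0 for ATF4, whose count was 5 to 8 with 1 library left out. Across 48 named members, 4 reversed. With 1 library left out, TMSB4XP6 ranged from -7.93 to 0.027 (the latter without the SNU1079 mTORi or combination library), CRBN from -0.082 (without SNU1079 vehicle or BETp, and -0.060 without those of SSP25) to 0.15 and MYC from -0.11 (without SSP25 mTORi or combination) to 0.26. In single pairs BRD2 was -0.041 and MYC -0.096 without AZD8055, and CRBN -0.18 with it. Except where fewer samples or genes were fitted, the cause was not tested.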
